A study of Mus musculus with 3 samples.

Results

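NIH3T3 cells carrying mtYAP were compared directly with NIH3T3 cells carrying wild-type YAP. NIH3T3 is an immortalized line of mouse embryo fibroblasts (NIH/Swiss strain) that stops growing when cells touch each other. The study asked how added YAP acts on the growth and gene expression of these cells, and the direct comparison asks where the mutant and the wild-type protein left different mRNA levels. The comparison used 2 of the 3 samples of the series, chosen by genotype, and covered 18193 genes. The mtYAP cells (genotype Yap S112A) carried mouse Yap in which serine 112 was replaced by alanine, and the YAP cells carried wildtype Yap. Both cDNAs ended in a Flag tag and were delivered by a retrovirus that also gives puromycin resistance, and the infected cells that survived puromycin were used as pools. Vector and selection were therefore shared by the compared cells. The third sample, called control, was labelled untransduced and is given only as a level beside the others. The methods also describe cells infected with the empty vector and selected, and the label was followed here. A free-text label on the control sample mentions embryonic stem cells, whereas its labels for cell line and cell type name NIH3T3 fibroblasts. All 3 samples were grown in medium with 10% calf serum. The arrays served a question about growth at confluence, but how dense each culture was when harvested is not stated in the labels or methods.

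YAP is a transcriptional coactivator that binds DNA through TEAD factors. In the Hippo pathway the kinases MST1 and MST2 activate LATS1 and LATS2, which phosphorylate YAP. Phosphorylation at serine 112 of mouse YAP creates a binding site for 14-3-3 proteins, which hold YAP in the cytoplasm, so the alanine mutant escapes this control. Active YAP in fibroblasts is known for turning on Ccn1, Ccn2 and Ankrd1, for growth at high density and for transformation.

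Each condition was hybridized to 1 Affymetrix mouse genome array, so there is no replicate, no test and no p-value, and every difference below describes a pair of arrays. Values are log2 levels from robust multiarray analysis (RMA), a method that corrects background, equalizes the arrays and summarizes the probes of each probe set. A difference is the level in mtYAP minus the level in YAP, so that 1 is 2-fold and 2 is 4-fold. A gene with several probe sets has the mean of them. The spread over its probe sets comes from the same pair of arrays and is not the error between cultures. The median SD of the difference over the probe sets of a gene was 0.15. It was taken over genes with several probe sets and a level of at least 6 in mtYAP or YAP. A gene was called higher in mtYAP above a difference of 1 and lower below -1. A level of 6 marks genes clearly measured here, and 6829 genes reached it in mtYAP or YAP. The array medians were 4.57 in mtYAP, 4.56 in YAP and 4.60 in control. The correlation of mtYAP with YAP over all probe sets was 0.988, and probe sets are not independent replicates.

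The promoters of 4 genes with large differences are shown because they hold the letters of motifs searched in all promoters. The sequences are from RefSeq, build GRCm38.p6, and give the 250 bases before the start site, 5′ to 3′ on the gene's strand. Capitals mark GGAATG or its reverse complement CATTCC, bound by TEAD factors, in Ccn1, Ankrd1 and Spry1. In Fgf21 they mark TTGCATCA, the reverse complement of TGATGCAA, which ATF4 and C/EBP factors bind together, and CACGTG, the E-box bound by MYC and MAX. The windows lie at chr3:145649986-145650235 (minus strand) for Ccn1, chr19:36119845-36120094 (minus strand) for Ankrd1, chr3:37639697-37639946 (plus strand) for Spry1 and chr7:45615491-45615740 (minus strand) for Fgf21.
Ccn1: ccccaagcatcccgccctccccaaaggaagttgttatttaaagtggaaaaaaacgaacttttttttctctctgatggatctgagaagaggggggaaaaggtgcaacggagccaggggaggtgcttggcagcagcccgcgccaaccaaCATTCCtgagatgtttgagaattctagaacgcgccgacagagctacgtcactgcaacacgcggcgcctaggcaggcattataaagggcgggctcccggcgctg
Ankrd1: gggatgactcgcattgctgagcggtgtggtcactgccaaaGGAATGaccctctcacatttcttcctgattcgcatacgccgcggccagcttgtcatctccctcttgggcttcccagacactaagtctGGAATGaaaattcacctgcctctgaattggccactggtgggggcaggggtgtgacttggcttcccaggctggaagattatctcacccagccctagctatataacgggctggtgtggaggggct
Spry1: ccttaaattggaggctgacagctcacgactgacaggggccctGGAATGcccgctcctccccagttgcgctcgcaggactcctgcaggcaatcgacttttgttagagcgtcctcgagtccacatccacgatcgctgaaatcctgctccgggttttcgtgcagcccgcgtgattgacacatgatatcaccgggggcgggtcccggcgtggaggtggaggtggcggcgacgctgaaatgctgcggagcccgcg
Fgf21: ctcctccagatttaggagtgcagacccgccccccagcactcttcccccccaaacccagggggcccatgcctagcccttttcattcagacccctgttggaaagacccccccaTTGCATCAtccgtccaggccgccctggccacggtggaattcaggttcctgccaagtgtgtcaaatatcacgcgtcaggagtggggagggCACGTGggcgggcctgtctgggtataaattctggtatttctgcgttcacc

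The TEAD letters began 103 bases before the start site in Ccn1, 210 and 123 bases before it in Ankrd1 and 208 bases before it in Spry1. In Fgf21 the ATF4 letters began at 139 bases and the E-box at 50 bases before the start. Both strands were searched for all motifs, and none of the motifs overlaps another in these windows. Among 14452 compared genes with a window in the RefSeq table, 13.4% held the TEAD letters, 0.74% the ATF4 letters and 8.73% the E-box, and among all 32851 windows of the table the shares were 12.6%, 0.79% and 6.02%. The TEAD letters stood in 22 of the 101 genes with a window that were called higher in mtYAP (21.8%) and in 32 of the 203 called lower (15.8%). In the list of YAP/TAZ target genes they stood in 7 of 15 windows, those of Ajuba, Amotl2, Ankrd1, Axl, Ccn1, Crim1 and Ptpn14. Their share there (46.7%) was no higher than among Hippo pathway components (11 of 23, 47.8%) or contractile genes (7 of 13, 53.8%). Both of those lists were among the ones with the highest shares. The Hippo list shares 4 genes with the target list, and Ajuba, Amotl2 and Ptpn14 held the letters in both. The ATF4 letters stood in 5 of 27 windows of the ATF4 list, those of Chac1, Fgf21, Nupr1, Slc7a11 and Vldlr. The E-box stood in 10 of the 101 higher genes (9.90%) and 14 of the 203 lower ones (6.90%). These counts describe letters only and were not tested, and a match is not shown to be a bound site.

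Yap1, the gene delivered in both lines, was at 8.57 in control, 7.89 in mtYAP and 8.06 in YAP. Of its 2 probe sets, the first measured 7.30, 6.63 and 6.61 in control, mtYAP and YAP, and the other 9.84, 9.15 and 9.51. Both probe sets were thus lower in the transduced lines than in control. The vector held the coding sequence alone, and where these probe sets lie on the transcript was not looked up, so they do not check whether the 2 cDNAs were expressed equally. How far unequal amounts of the 2 proteins take part in the differences below was not tested.

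In all, 136 genes were called higher in mtYAP (0.748% of 18193) and 259 lower (1.42%). Differences beyond 2 were seen in 10 genes above (0.055%) and 23 genes below (0.126%). Among the 6829 genes that reached 6, 94 were higher (1.38%) and 194 lower (2.84%), and beyond 2 these counts were 9 (0.132%) and 20 (0.293%). The middle of the distribution lay near 0, with a median of 0.025 over all genes and -0.03 over those that reached 6, and all genes but the outermost 2.5% on each side lay between -0.80 and 0.68. Genes called lower outnumbered genes called higher at every mean level, with 13 higher against 19 lower at levels below 4, 45 against 92 from 4 to 6, 43 against 86 from 6 to 8, 27 against 49 from 8 to 10 and 8 against 13 above 10. Of the 59 higher genes with several probe sets, 30 had all of them above 1 and all 59 had all of them above 0. Of the 100 lower genes with several probe sets, 45 had all of them below -1 and 95 had all of them below 0.

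**Figure D1:**
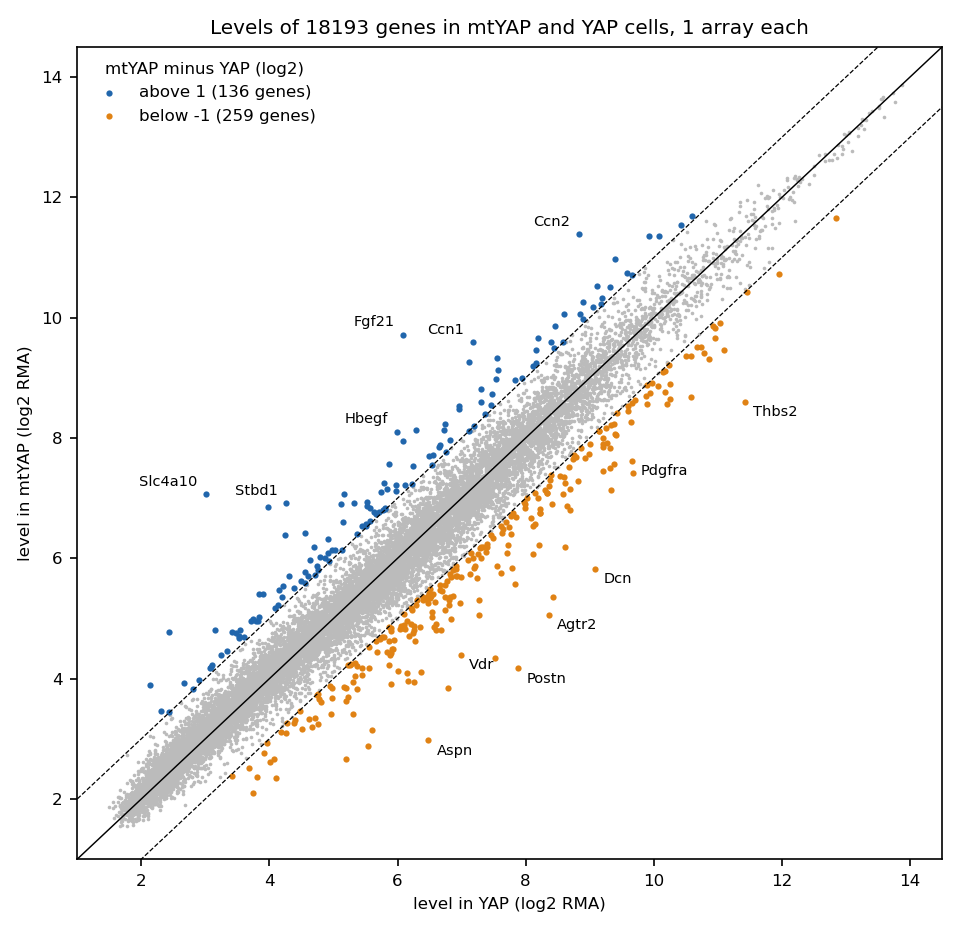
Level of each of 18193 genes in YAP (horizontal axis, log2 RMA) against its level in mtYAP (vertical axis, log2 RMA), 1 array each, with the solid line at equal levels and the dashed lines at a difference of 1 and -1. Most genes lie along the solid line, 136 genes (blue) lie above the upper dashed line and 259 (orange) below the lower one.

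The plot of mtYAP against YAP levels shows a narrow band of genes with few far outside it. The genes farthest above the band included the transporter Slc4a10, the secreted factors Fgf21 and Hbegf and the CCN proteins Ccn2 and Ccn1, and those farthest below included the matrix proteins Postn, Aspn, Dcn, Thbs2 and Lum. In a bulk culture, fewer cells of a kind and less RNA per cell cannot be told apart.

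Slc4a10, a sodium-dependent bicarbonate transporter, had the largest positive difference. Control had a level of 2.66, mtYAP of 7.07 and YAP of 3.01, a difference of 4.06 (16.7-fold). It stood at the low end of the scale in control and YAP and was clearly measured in mtYAP alone. Fgf21, a hormone-like fibroblast growth factor induced under amino acid and organelle stress, was at 3.87 in control, 9.72 in mtYAP and 6.08 in YAP, 3.64 higher in mtYAP than in YAP (12.5-fold). YAP itself lay between the other arrays here. Plscr2, a phospholipid scramblase family member, was at 2.45, 6.85 and 3.98 in control, mtYAP and YAP (difference 2.87), and Stbd1, which tethers glycogen to membranes, was at 2.38, 6.92 and 4.26 (2.66). Both had the same order of the arrays as Fgf21.

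Ccn2 and Ccn1, the secreted CCN proteins that serve as the usual readouts of YAP and TEAD, came next. Ccn2 was at 8.34 in control, 11.39 in mtYAP and 8.83 in YAP, a difference of 2.56 (5.90-fold). Ccn1 was at 7.98 in control, 9.59 in mtYAP and 7.17 in YAP, a difference of 2.42 (5.34-fold) with its 4 probe sets between 2.18 and 2.54. For Ccn1 the YAP array was the lowest of the 3, whereas for Ccn2 it was slightly above control. Plagl1, a zinc finger factor linked to growth arrest, differed by 2.15, and its 3 probe sets ranged from 1.57 to 2.98. Pawr, a regulator of cell death, differed by 2.14, but its 2 probe sets differed by 1.02 and 3.26. Hbegf, which activates the EGF receptor, was at 4.87 in control, 8.11 in mtYAP and 5.99 in YAP, a difference of 2.12 (4.35-fold).

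The other genes of this group differed by 1.77 to 1.91. Dppa2, known from pluripotent cells, was at 3.73, 7.08 and 5.17 in control, mtYAP and YAP. Rnd1, a small GTPase that loosens the actin skeleton, was at 3.19, 6.42 and 4.55, and Spry1, a feedback inhibitor of receptor tyrosine kinases, was at 5.84, 7.95 and 6.08. In each of these the mtYAP array was the highest. Cd24a, a glycosylated surface protein, was at 9.29 in control, 8.13 in mtYAP and 6.29 in YAP, so that control was the highest of the 3. Klhl29, a kelch repeat protein, was at 5.41, 6.90 and 5.11, and Cth, which makes cysteine from cystathionine, was at 3.78, 9.33 and 7.56.

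Postn (periostin), a matricellular protein of fibroblasts, had the largest negative difference. It was at 10.97 in control, 4.17 in mtYAP and 7.88 in YAP, so that YAP was 13.1-fold higher than mtYAP (difference -3.71). The 3 arrays stood well apart. Aspn (asporin), a small leucine-rich proteoglycan, was at 7.35, 2.98 and 6.48 in control, mtYAP and YAP (difference -3.51). Agtr2, the type 2 angiotensin receptor, was at 10.00, 5.06 and 8.36 (-3.30). Dcn (decorin), which binds collagen fibrils and growth factors, was at 10.30, 5.83 and 9.09 (-3.26). In all 4 genes, Postn included, YAP lay nearer to control than to mtYAP.

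Cd55, which shields cells from complement, was at 7.32 in control, 4.34 in mtYAP and 7.52 in YAP, a difference of -3.18. Here mtYAP alone was low. Cdo1, which oxidizes cysteine, was at 11.68, 5.35 and 8.43 in control, mtYAP and YAP (difference -3.08), and Aox1, an aldehyde oxidase, at 7.68, 3.85 and 6.78 (-2.93). Thbs2 (thrombospondin 2), a matricellular protein that restrains vessel growth, was at 12.37, 8.60 and 11.43 (-2.83), with 3 probe sets between -3.08 and -2.66. These genes were above 6 in YAP, which the choice of named genes required, and Cd55, Cdo1 and Aox1 were below 6 in mtYAP.

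Vdr, the vitamin D receptor, Rin2, a RAB5 exchange factor, and Lum (lumican), another small leucine-rich proteoglycan, differed by -2.59, -2.43 and -2.32. Ccl2, a chemokine for monocytes, was at 9.75, 5.57 and 7.83 in control, mtYAP and YAP (-2.26). Rgcc, a cell cycle regulator, and Tle2, a Groucho family corepressor, differed by -2.26 and -2.22. Pmp22, a membrane protein also known as growth arrest-specific 3, was at 10.34, 7.42 and 9.67 (-2.25). For the 15 genes named on this side, control was the highest array in all but Cd55.

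**Figure D2:**
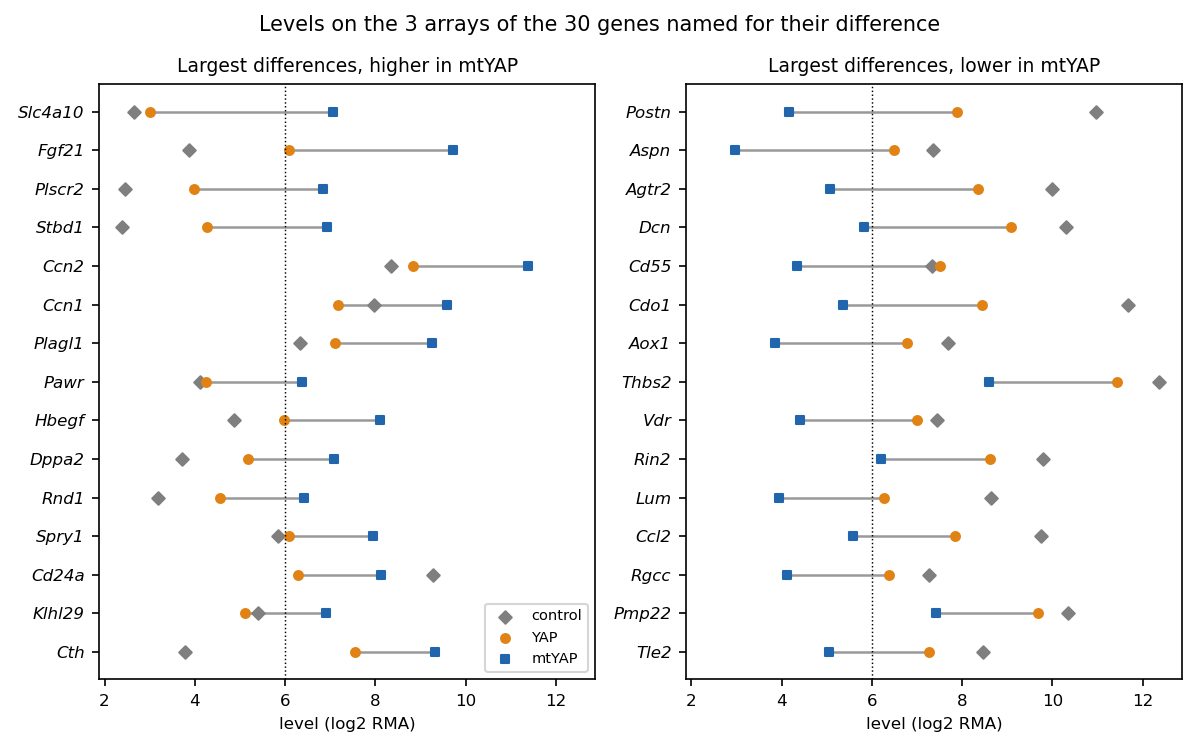
Levels (log2 RMA, horizontal axis) in control (grey diamonds), YAP (orange circles) and mtYAP (blue squares) of the 15 most different genes on either side among those reaching 6 in mtYAP or YAP, with a line joining YAP and mtYAP and a dotted line at 6. On the left mtYAP is above YAP by 1.77 (Cth) to 4.06 (Slc4a10), and on the right below it by -2.22 (Tle2) to -3.71 (Postn).

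The plot of these 30 genes shows the lower genes at 6.26 to 11.43 in YAP, where the choice of named genes required at least 6 of them. In YAP, 11 of the 15 higher genes were at 6.29 or below, and the RMA scale compresses folds near background, so the largest folds carry that limit. On the lower side the same holds, since 12 of the 15 genes, Postn and Aspn among them, were below 6 in mtYAP.

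Among the 22 genes of the YAP/TAZ target signature, all of them measured, 7 were higher in mtYAP and 1 was lower, beside 0.748% and 1.42% of all genes. The median difference was 0.255, beside 0.025 over all genes. Besides Ccn2 and Ccn1, the higher genes were Crim1, which binds growth factors of the BMP family, Nuak2, a stress kinase, Ankrd1, Gadd45a, which responds to DNA damage, and Ajuba, a LIM protein that restrains LATS. Crim1 was at 6.59, 8.48 and 6.96 in control, mtYAP and YAP (difference 1.53). Nuak2 was at 6.15, 8.23 and 6.74 (1.49). In both genes YAP was closer to control than to mtYAP.

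Ankrd1, a nuclear ankyrin protein, was at 7.12 in control, 11.35 in mtYAP and 9.92 in YAP, a difference of 1.43. Gadd45a was at 7.78, 11.36 and 10.08 (1.28) and Ajuba at 7.59, 9.20 and 8.12 (1.08). The distance of YAP from control was thus large for Ankrd1 and Gadd45a and small for Ajuba. Amotl2, an angiomotin that binds YAP, was inside the limit with 9.86, 11.22 and 10.43 (0.79). The gene called lower, Ccdc80, encodes a secreted matrix protein and was at 9.56, 7.71 and 8.75 (-1.04). Ankrd1 and Ccdc80 are named to account for the counts, after their values were seen. The 8 members below 6 in both lines differed by -0.25 to 0.63.

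**Figure D3:**
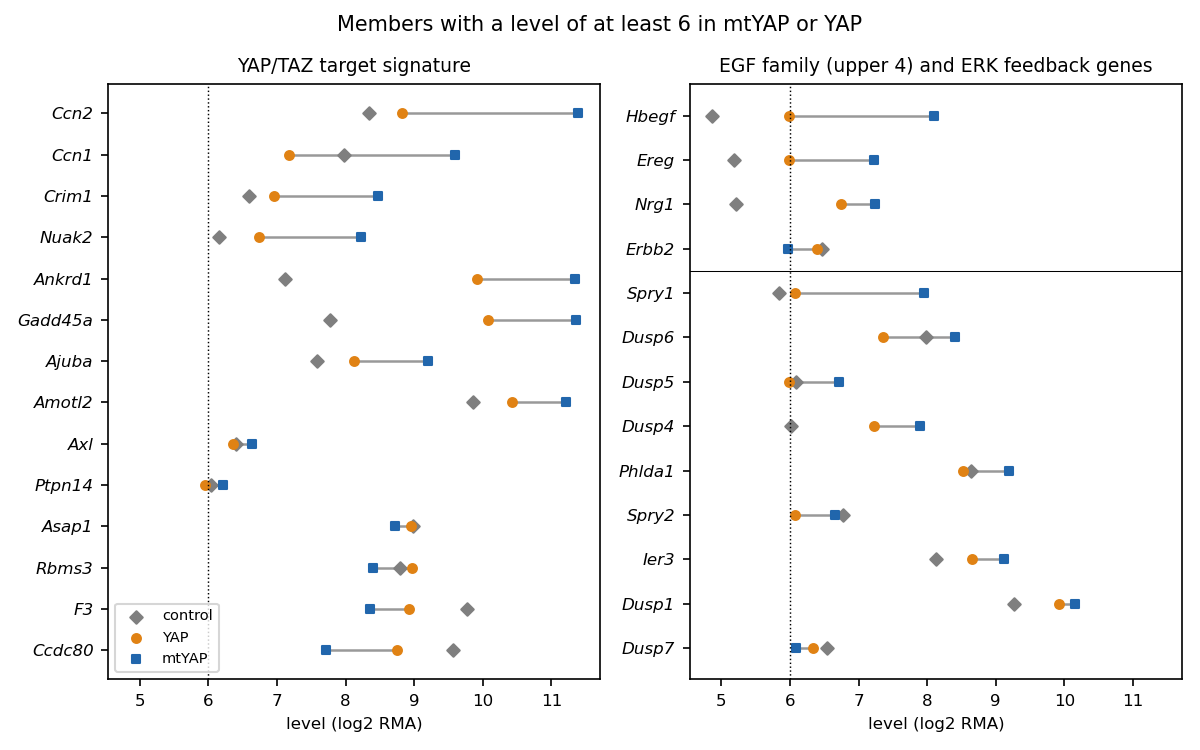
Levels (log2 RMA, horizontal axis) in control (grey diamonds), YAP (orange circles) and mtYAP (blue squares) of the 14 members of the YAP/TAZ target signature (left) and of 4 EGF family and 9 ERK feedback genes (right) that had a level of at least 6 (dotted line) in mtYAP or YAP. Ccn2, Ccn1 and Spry1 show YAP near or below control and mtYAP far above, while for Ankrd1 and Gadd45a YAP lies between control and mtYAP.

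The pathway that controls YAP showed little of this. Of 27 measured Hippo pathway components, 1 was higher (Ajuba, shared with the targets), none was lower and the median was 0.055. Here and for every list below, the shares over all genes were 0.748% called higher and 1.42% called lower. Among genes that reached 6 in mtYAP or YAP they were 1.38% and 2.84%, the closer comparison for lists whose members mostly reach 6. In lists this short, none called is near those shares. Tead2, a TEAD factor, was at 8.99 in control, 8.19 in mtYAP and 9.02 in YAP (-0.83). Tead1 differed by 0.055, Tead3 by -0.22 and Tead4, below 6 on all arrays, by 0.305. The TEAD factors thus stayed inside the limit, with Tead2 the farthest from 0. Vgll3, a TEAD cofactor, was at 9.60, 9.58 and 8.95 (0.63), where control matched mtYAP and YAP was lower. Nf2, an upstream activator of the pathway, was at 5.79, 6.49 and 5.97 (0.52).

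Of 14 measured genes of the EGF family, Hbegf and Ereg, both ligands, were higher in mtYAP, none was lower and the median was 0.10. Ereg (epiregulin) was at 5.18 in control, 7.22 in mtYAP and 5.98 in YAP (1.24). Nrg1, a ligand of ERBB3 and ERBB4, was at 5.21, 7.24 and 6.75 (0.49), with YAP closer to mtYAP than to control. The receptor gene Erbb2 was at 6.47, 5.97 and 6.39 (-0.42), and the other 10 genes were below 6 in both lines.

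Genes that ERK signalling turns on as feedback lay on the higher side. Of 16 measured, 13 were above 0 and 3 below, 3 were called higher and the median was 0.43. Dusp6, a phosphatase that inactivates ERK, was at 7.99 in control, 8.40 in mtYAP and 7.36 in YAP (1.04). Etv5, an ETS factor named after its value was seen, was at 4.84, 5.54 and 4.21 (1.34), below 6 on all arrays. For both, and not for Spry1, YAP was lower than control. Dusp5 and Dusp4, nuclear phosphatases of the same kind, differed by 0.74 and 0.68.

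Of 18 AP-1 and EGR family genes, Atf3, a stress-induced factor, was the single one called, with 5.66, 8.82 and 7.31 in control, mtYAP and YAP (1.51). The median was -0.10. Nr4a1, an orphan nuclear receptor of the immediate early response, was at 9.27, 8.01 and 8.94 (-0.93), Junb differed by -0.61 and Mafk by 0.50. Members lay on both sides of 0, 8 above and 10 below.

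Of 16 contractile genes, Cnn1 (calponin 1) was called higher, at 4.27 in control, 5.02 in mtYAP and 3.84 in YAP (1.18), below 6 throughout and named after its value was seen. Tpm1 (tropomyosin 1) was at 7.83, 8.39 and 7.42 (0.97), with its 4 probe sets between 0.75 and 1.14. Tagln (transgelin) was at 7.93, 6.95 and 6.18 (0.77), so that both lines were below control and YAP was the lowest. Cnn2 differed by 0.49 and Actn1 by 0.40, and the list's median was 0.13.

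Among the matrix genes, all 12 small leucine-rich proteoglycans were below 0, 4 of them called lower, with a median of -0.24. Aspn, Dcn and Lum are given above, and Omd (osteomodulin), named after its value was seen, was at 4.98 in control, 3.95 in mtYAP and 5.30 in YAP (-1.35). The family did not differ as a block, since Ogn (osteoglycin) was at 10.01, 10.73 and 10.97 (-0.245), above control in both lines. Of 23 collagen genes, 4 were called lower and none higher, 8 were above 0 and 15 below, and the median was -0.26.

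The 4 lower collagens were 3 chains of collagen VI, which forms beaded filaments around cells, and 1 chain of collagen XVI. Col6a3 was at 11.50, 8.76 and 10.17 in control, mtYAP and YAP (-1.41), Col6a2 at 10.64, 8.87 and 10.06 (-1.20) and Col6a1 at 11.42, 9.52 and 10.67 (-1.15). Col16a1 was at 10.39, 8.27 and 9.65 (-1.38). All 4 had the order control, YAP, mtYAP from high to low. Postn, Thbs2 and Thbs3, another thrombospondin (6.37, 5.18 and 6.21, difference -1.03), were the 3 lower genes among 25 matricellular and elastic fibre genes, with 8 members above 0, 16 below and a list median of -0.14. Mgp (matrix Gla protein), an inhibitor of calcification, was the 1 higher gene there, at 8.18, 4.96 and 3.82 (1.14), and is named after its value was seen. Ltbp2, a latent TGF-beta binding protein, differed by -0.76.

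Among 19 matrix proteases and inhibitors, Timp3, which inhibits metalloproteinases, was called higher. It was at 8.56 in control, 10.52 in mtYAP and 9.12 in YAP (1.40), with its 4 probe sets between 1.09 and 1.55. Adamts1, a secreted metalloproteinase, was at 11.29, 9.32 and 10.87 (-1.55), and Adamts4, an aggrecanase named after its value was seen, differed by -1.31 with levels below 6. An inhibitor and proteases of its class thus lay on opposite sides. Plaur, the urokinase receptor, differed by 0.92 and Mmp14 by -0.78, and 8 members of the list were above 0 and 11 below, with a median of -0.15. None of 18 integrin genes passed the limit, with a median of -0.05, but only 3 of them reached 6 in mtYAP or YAP. The lowest difference, in a gene below 6 in both lines, was -1.0, on the limit. Itgb8 differed by -0.66, Itga6 by 0.285 and Itgb5 by -0.215.

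**Figure D4:**
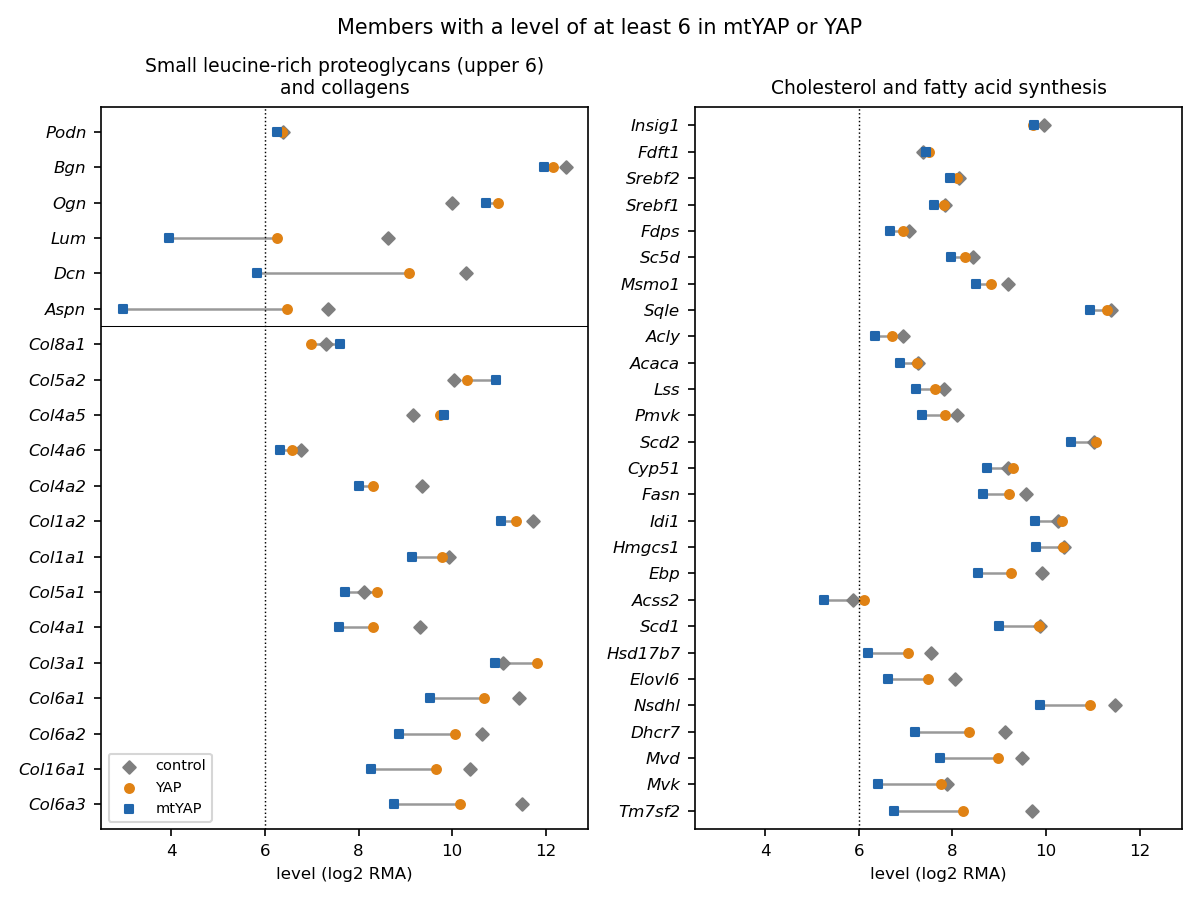
Levels (log2 RMA, horizontal axis) in control (grey diamonds), YAP (orange circles) and mtYAP (blue squares) of 6 small leucine-rich proteoglycan and 14 collagen genes (left) and 27 genes of cholesterol and fatty acid synthesis (right) with a level of at least 6 (dotted line) in mtYAP or YAP. Dcn, Lum and Aspn are separated by -2.32 to -3.51 and Podn, Bgn and Ogn by little, while nearly the whole right panel has mtYAP to the left of YAP.

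Both PDGF receptors were lower. Among 22 genes of the FGF, PDGF and pleiotrophin families, 4 were called lower and only Fgf21 higher, with a median of -0.04. Pdgfra, a receptor for platelet-derived growth factor, was at 10.03 in control, 7.62 in mtYAP and 9.67 in YAP (-2.04). Pdgfrb, its partner, was at 9.69, 7.07 and 8.59 (-1.52). For Pdgfra YAP was near control, and for Pdgfrb it lay between the others. Ptn (pleiotrophin), a secreted growth factor, differed by -1.79, but its 3 probe sets ranged from -3.15 to -0.16. Vegfd, a lymphatic growth factor named after its value was seen, was at 9.42, 7.85 and 9.20 (-1.36).

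Readouts of TGF-beta and BMP signalling had 4 lower genes and 1 higher among 21, with a median of 0.08. Id3, an inhibitor of basic helix-loop-helix factors turned on by BMP, was at 7.22, 4.13 and 6.0 in control, mtYAP and YAP (-1.87). Tgfb3, a ligand, was at 8.09, 5.26 and 6.98 (-1.72). Tgfbi (-1.51), Id2 (-1.12) and Id4 (1.10) were below 6 in both lines and are named after their values were seen, so that members of the Id family lay on both sides. Bambi, a decoy receptor, differed by 0.69, and Inhba, an activin subunit, by 0.685 with probe sets at 0.35 and 1.02.

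Of 17 genes of Wnt antagonists and response, the 2 called lower were the Dickkopf proteins Dkk3, at 9.10, 4.63 and 6.28 (-1.66), and Dkk2, at 7.51, 6.38 and 7.46 (-1.08). The median was 0.05, and the other 15 genes were below 6 in both lines. In the IGF family, 11 of 13 genes were below 0 with a median of -0.135. Irs1, an adaptor of the insulin and IGF receptors, was at 10.56, 7.90 and 9.01 (-1.11), whereas Irs2, a related adaptor, differed by 0.64. Igf2r and Igfbp4 differed by -0.515 and -0.44.

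Cell cycle genes were higher in mtYAP by small amounts that ran through nearly the whole lists. Of 41 S phase genes, 40 were above 0, 6 were called higher and the median was 0.53. Mcm2, a subunit of the replicative helicase, was at 7.20, 9.66 and 8.19 in control, mtYAP and YAP (1.47). Rrm2, which makes deoxynucleotides, was at 6.88, 8.59 and 7.30 (1.29). Ung, a uracil glycosylase, and Rad51ap1, a recombination protein, each differed by 1.17. Cdc6, which loads the helicase (1.35), and Ccne2, a cyclin (1.16), were called at levels below 6 and are named after their values were seen. Of 53 G2/M genes, 48 were above 0, 2 were called higher and the median was 0.44. These were Ect2, which drives cytokinesis, at 6.14, 8.55 and 7.46 (1.09), and Cdk1, the mitotic kinase, at 7.5, 9.0 and 7.95 (1.05). Anln (anillin) and Cks1b differed by 0.92 and 0.91. Over all genes 53.3% were above 0, and among those that reached 6 in mtYAP or YAP 46.0%.

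Genes that hold cells out of the cycle lay mostly on the other side. Of 22 CDK inhibitors, pocket proteins and FOXO-linked arrest genes, 16 were below 0 and 6 above. In this list 3 were called lower, none higher, and the median was -0.28. Pik3ip1, a brake on PI3 kinase, was at 7.59, 5.36 and 6.75 in control, mtYAP and YAP (-1.39), and Ccng2, a cyclin of quiescent cells, was at 8.87, 7.14 and 8.31 (-1.17). Txnip, which lowers glucose uptake, was at 10.68, 9.51 and 10.74 (-1.24), with YAP at the level of control. Cdkn2c, an inhibitor of CDK4 and CDK6, was at 11.32, 9.25 and 10.20 (-0.95). Ccnd2 (cyclin D2) differed by 0.27.

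Myc was at 7.75 in control, 10.71 in mtYAP and 9.66 in YAP, a difference of 1.05. It was the 1 higher gene among 12 of the MYC and MAX network. Mxd4, a MYC antagonist below 6 in both lines and named after its value was seen, was the 1 lower gene, at 5.97, 4.43 and 5.91 (-1.48). Max differed by 0.61, Mxi1 by -0.53 and Mlx by 0.26, and the median was -0.09. One Mycn probe set stood apart in both lines, at 6.22 in control, 12.51 in mtYAP and 13.07 in YAP. The other Mycn probe sets were below 5 on all arrays, so the gene's mean difference of -0.21 joins unlike values.

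Genes known as MYC targets were above 0 in 24 of 26, with 2 called higher and a median of 0.51. Odc1, the first enzyme of polyamine synthesis, was at 7.87, 10.32 and 9.19 in control, mtYAP and YAP (1.13), and Dkc1, which modifies ribosomal RNA, was at 7.49, 9.97 and 8.89 (1.08). Nop56 and Nop58, core proteins of small nucleolar particles, each differed by 0.95. All 38 ribosome biogenesis genes were above 0, from 0.03 to 1.02, with a median of 0.495. Rrp12, an export factor of the small subunit, was at 5.51, 7.55 and 6.53 (1.02) and was the single one called. Ltv1, Lyar and Utp4 differed by 0.99, 0.93 and 0.88. Cytosolic ribosomal proteins, the products that these factors assemble, had a median of -0.02 over 27 genes, with none called. Rpl14 differed by -0.41, Rps3 by -0.26, Rpl37 by -0.25 and Rps20 by 0.25.

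The ATF4 response, which supplies amino acids under stress, had 6 higher genes and no lower one among 31, with 25 above 0 and a median of 0.44. Fgf21, Stbd1 and Cth are given above. Ppp1r15a, which reverses the phosphorylation of eIF2alpha, was at 7.09 in control, 10.97 in mtYAP and 9.39 in YAP (1.58). Psph, the last enzyme of serine synthesis, was at 7.08, 10.18 and 9.05 (1.13), and Nupr1, a small stress protein, at 8.44, 10.22 and 9.18 (1.04), both named after their values were seen. In all 6 genes YAP lay between control and mtYAP. Cytosolic aminoacyl-tRNA synthetases, many of them ATF4 targets, were above 0 in 18 of 19 with a median of 0.37 and none called. Wars differed by 0.97, Yars by 0.74, Farsb by 0.72 and Nars by 0.59.

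Chaperones of the endoplasmic reticulum did not share this, with a median of 0.05 over 22 genes and none called. Ero1a, an oxidase of that compartment, was at 7.88, 11.28 and 10.30 in control, mtYAP and YAP (0.99), just inside the limit. Hspa5 (BiP) differed by 0.48, Hsp90b1 by 0.435 and Edem1 by -0.50.

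Cholesterol and fatty acid synthesis was lower in mtYAP almost throughout. Of 27 genes, all with a level of at least 6, 26 were below 0, 5 were called lower and the median was -0.56. Mvk and Mvd, enzymes of the mevalonate pathway, were at 7.89, 6.41 and 7.77 (-1.36) and at 9.49, 7.74 and 8.99 (-1.25) in control, mtYAP and YAP. The later sterol enzymes Tm7sf2, at 9.70, 6.76 and 8.22 (-1.46), Dhcr7, at 9.12, 7.21 and 8.36 (-1.15), and Nsdhl, at 11.47, 9.87 and 10.93 (-1.06), were lower too, Nsdhl being named after its value was seen. Insig1, the 1 member above 0, differed by 0.02. In the plot of matrix and sterol genes the shift runs through the sterol panel, while in the collagen panel Col5a2, Col8a1 and Col4a5 lie on the opposite side.

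Other metabolic lists differed less. None of 27 glycolysis and hypoxia genes was called, with a median of -0.08. Hk2 (0.77) and Hk1 (-0.51), both hexokinases, lay on opposite sides, and Ndrg1 and Ankrd37, both known hypoxia genes, differed by 0.62 and -0.70. Of 19 NRF2 antioxidant genes, 4 were called lower, with a median of -0.24. The glutathione transferases Gstm1, at 8.47, 6.75 and 8.22 (-1.47), and Gsta4, at 9.79, 8.70 and 9.88 (-1.18), were lower. Pgd, which makes NADPH, was at 9.60, 8.57 and 9.90 (-1.32). Nqo1, a quinone reductase, was at 5.18, 5.07 and 6.10 (-1.03), where mtYAP was at the control level and YAP above it. Of 28 lysosomal genes, 23 were below 0 with a median of -0.29 and none called, and Ctsb, Tpp1, Glb1 and Ctsd differed by -0.74, -0.70, -0.61 and -0.54. Respiratory chain subunits had a median of -0.06 over 34 genes with none called. Ndufb3 differed by -0.54, Atp5a1 by -0.37, Uqcrb by -0.295 and Cyc1 by 0.23.

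Of 27 interferon-stimulated genes, 3 were called lower, none higher, and the median was -0.31. Only 6 of them reached 6 in mtYAP or YAP. Gbp2, a guanylate-binding GTPase, was at 7.43, 4.82 and 6.68 in control, mtYAP and YAP (-1.86), and Ifit1 (-1.29) and Xaf1 (-1.05) were below 6 in both lines. Irf1, Ifit2 and B2m differed by -0.68, -0.53 and -0.39. Of 27 chemokine and interleukin genes, 5 reached 6 in mtYAP or YAP and 4 were called lower, with a median of 0.03 over all 27. Ccl2 is given above, and Ccl7, a chemokine encoded beside it, was at 8.19, 6.18 and 7.39 (-1.21). Ccl8 (-1.63) and Il33 (-1.39) were below 6 in both lines. Ifit1, Xaf1, Ccl8 and Il33 are named after their values were seen. Cxcl5 differed by -1.0, on the limit, and Csf1 differed by 0.55.

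Of 20 serpin genes, 6 reached 6 in mtYAP or YAP and 2 were called lower, with a median of -0.105 over all 20. Serpinb9, an inhibitor of granzyme B, was at 5.94, 6.01 and 7.18 in control, mtYAP and YAP (-1.17), so that YAP alone was high. Serpinb9b, a close paralog whose probes may share targets with it, was at 5.61, 8.42 and 9.22 (-0.80). Serpinb8, below 6 and named after its value was seen, differed by -1.36, Serpinb1a by -0.93 and Serpinb6a by -0.89.

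No mesenchymal transcription factor or cadherin was called among 24 genes, beside 0.748% higher and 1.42% lower over all genes. The list's median was -0.17. Zeb2 (-0.86), Prrx1 (-0.82) and Zeb1 (-0.745), factors that keep cells mesenchymal, and Cdh11 (-0.69), a fibroblast cadherin, were all lower by less than 2-fold. Zeb1 had 4 probe sets from -1.99 to 0.00. Cdh2 (N-cadherin) was at 8.38, 8.12 and 8.62 (-0.495), and Cdh1 (E-cadherin) was near background on every array, at 1.84, 2.30 and 2.11. Of 15 Kruppel-like factors none was called, with a median of -0.08. Klf4 was at 9.12, 10.56 and 10.45 (0.11), alike in both lines and above control. Klf2 differed by -0.75, Klf10 by -0.72, Klf16 by 0.50 and Klf13 by -0.30.

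Of 22 p53 target genes, Gadd45a, already counted among the YAP/TAZ targets, was the single one called and the median was 0.15. Plk3 differed by 0.81, Aen by 0.58 and Sesn1 by -0.78. In the BCL2 family, 2 of 14 were called lower, with a median of 0.02. Bcl2l11 (BIM), which promotes cell death, was at 6.73, 4.91 and 6.22 (-1.31) with 5 probe sets from -2.02 to -0.29. Bmf, another member that promotes cell death, was below 6 and differed by -1.06, and is named after its value was seen. Bid differed by 0.56, Bad by -0.345 and Bok by -0.22.

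None of 11 housekeeping genes passed the limit, with a median of -0.06 and a range of -0.39 to 0.38. Hprt, Gusb and Sdha differed by 0.38, -0.255 and -0.20, and Actb by 0.02. The fibroblast label was checked against 14 marker genes, of which 13 had a level of at least 6 in mtYAP or YAP. Even so 12 were below 0, 5 were called lower and the median was -0.75. These were Dcn, Lum, Pdgfra, Pdgfrb and S100a4, a calcium-binding protein at 13.34, 11.66 and 12.84 in control, mtYAP and YAP (-1.18). S100a4 is named after its value was seen.

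Markers of other cell types were low. No macrophage, epithelial, endothelial or skeletal muscle marker reached 6, the highest being 5.34, 4.45, 4.96 and 4.65 in mtYAP and 5.99, 4.68, 4.86 and 4.83 in YAP. None of the macrophage, epithelial and muscle markers was called, with medians of 0.06 over 8, -0.03 over 10 and 0.00 over 8 genes. The endothelial list had 1 higher gene of 8, Emcn (1.15, below 6 in both lines and named after its value was seen), and a median of 0.285. Among 8 mesothelial markers Msln (mesothelin) alone reached 6, at 6.62, 10.80 and 10.22 in control, mtYAP and YAP (0.58), with a list median of 0.25. Among 7 adipocyte markers Lpl, a lipase that fibroblasts also express, was the 1 called, at 9.78, 9.86 and 8.47 (1.40), with a median of 0.53. Among 10 pluripotent cell markers Dppa2 alone reached 6 and was the 1 called, with a median of 0.14. The part of other cells in the differences above was not tested.

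**Figure D5:**
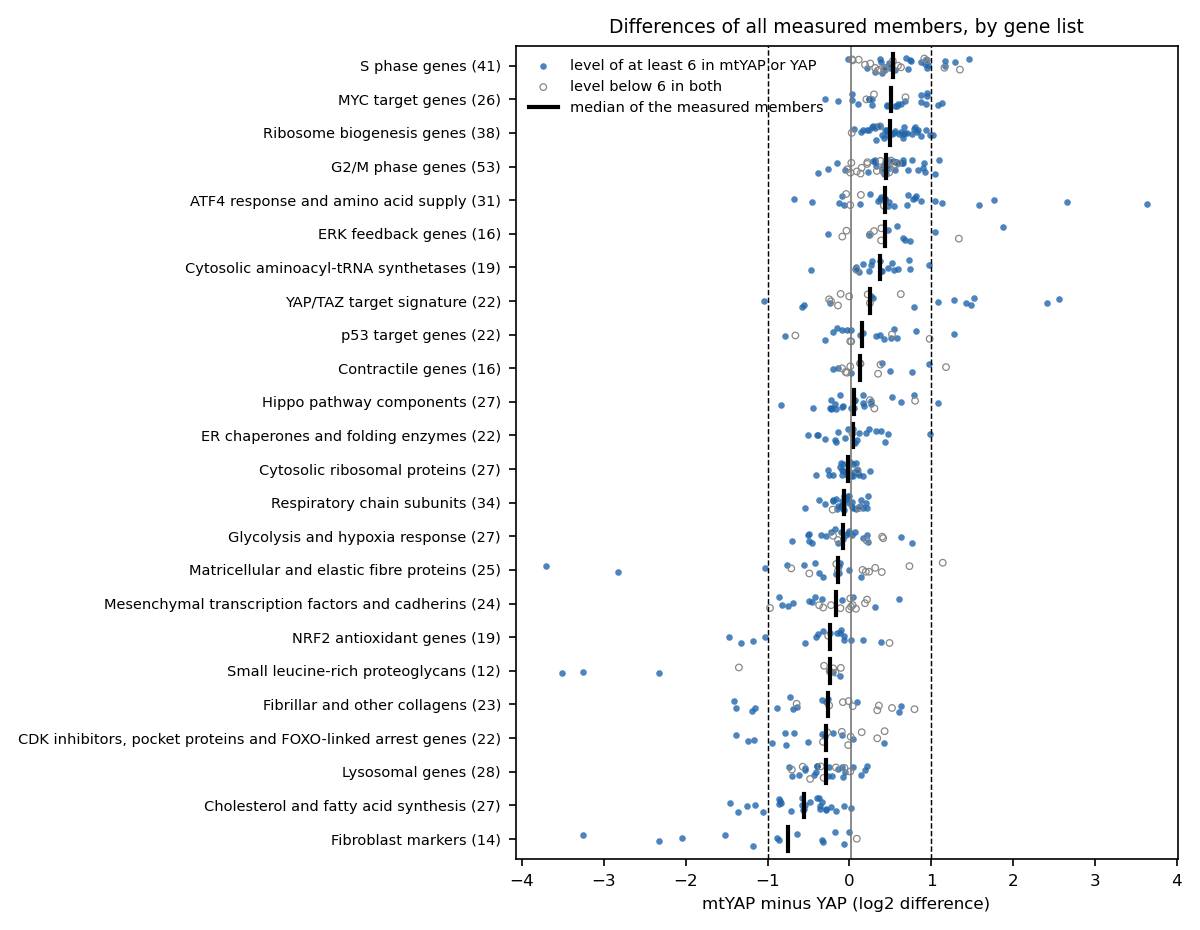
Difference of mtYAP minus YAP (log2, horizontal axis) of every measured member of 24 of the 46 lists, sorted by median (black bars), with the number of measured members in parentheses, filled points for genes with a level of at least 6 in mtYAP or YAP, open points for the rest, a grey line at the median of all genes (0.025) and dashed lines at 1 and -1. All ribosome biogenesis genes and nearly all S phase and MYC target genes lie to the right of 0. Most fibroblast markers and sterol genes lie to the left, and the YAP/TAZ targets are spread from -1.04 to 2.56.

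The plot of differences by list shows how the members were spread. In the S phase, G2/M, ribosome biogenesis and sterol lists most members were displaced a little in the same direction and few passed the limit. In the matricellular list Postn and Thbs2 lay far out around a median of -0.14. The ATF4 list had both features, with 25 of 31 members above 0 and Fgf21 and Stbd1 beyond 2. The lists share some genes and were not tested against each other.

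The order of the 3 arrays also differed between genes. For Fgf21, Cth, Ankrd1, Myc and Odc1 on the higher side, and Postn, Cdo1, Col6a3 and Tm7sf2 on the lower side, YAP lay between control and mtYAP. For Ccn1, Dusp6, Tpm1 and Vgll3, YAP was the lowest of the 3. For Cd55, Pgd, Gsta4, Txnip and Serpinb9, YAP was the highest, although for Gsta4 and Txnip it was close to control. Since each array stands alone, these orders are descriptions of 3 values, and the direct comparison of mtYAP with YAP does not depend on the control.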

How the data were processed

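Total RNA of 3 NIH3T3 cultures, 1 per condition, was labelled with biotin and hybridized to Affymetrix mouse genome arrays. The deposited values are log2 levels per probe set, which the authors made by background subtraction and RMA normalization in R. Per the labels the tools were RMA and affy, with versions not given in the sources used here. It is not stated if more arrays entered the normalization. RMA sets all arrays to a common distribution, so a shift shared by most genes would not be seen. The values have 2 decimals.

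Names of probe sets came from the platform annotation. Of 45037 probe sets, 34945 name 1 gene and were used, 932 name several and 9160 none. Of the Entrez identifiers, 18032 were found in RefSeq's gene table for GRCm38.p6 and 162 were not. Probe sets of a gene were averaged within each array (9183 genes have 1 probe set, 9010 several), and the YAP level was subtracted from the mtYAP level. The limit was a difference of 1 or -1. With 1 array per condition no test was run, and the number of arrays limits the precision.

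The 46 lists name 971 genes, of which 907 were measured and 64 are not analysed here. Lists, members and limits were chosen with earlier results of these data known, so their counts are descriptions. Seurat's S phase and G2/M lists were used in mouse spelling, and general knowledge supplied the others. Named genes are the 15 with the largest difference in each direction among genes reaching 6 in mtYAP or YAP whose probe sets all differ in the same direction, in each list up to 4 members that reach 6 and differ most, and the genes that the study discusses in these cells. Members named to account for a small count are marked in the text as chosen after their values were seen.

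Promoter letters were searched in the 250 bases before the start sites of the RefSeq table. The steps were run in Python 3.11.15 with numpy 2.4.6, pandas 2.3.3, statsmodels 0.14.6 and matplotlib 3.10.9 and tested on simulated data. The alternatives tried were any probe set of a gene past the limit, probe sets counted singly, only the brightest probe set of a gene, a level of at least 6 or 8, no probe sets marked _s, _x or _a, the median difference subtracted, and a loess curve against the level (span 0.3) subtracted.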

Additional observations from a re-analysis of the deposited data

How the results depend on the processing

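The counts of 136 higher and 259 lower genes depended on the treatment of probe sets and on the level required. With any probe set of a gene past the limit, 260 genes were higher and 443 lower, and with probe sets counted singly, 347 were higher and 579 lower of 34945. With a level of at least 8 in mtYAP or YAP, 46 were higher and 91 lower of 2555 genes, since fewer genes were counted. Their shares, 1.80% and 3.56%, were above the 0.748% and 1.42% of all genes. The other settings, over 6829 to 18193 genes, gave 94 to 185 higher and 194 to 336 lower genes. Over all settings, genes called higher made up 30.02% to 37.5% of all calls. No named gene past the limit reversed its direction, and Actb, at 0.02, was at -0.13 without probe sets marked _s, _x or _a and at -0.005 with the median difference subtracted. Of 79 named genes past the limit, Dkc1 (0.95 with its brightest probe set, 0.97 without the marked probe sets), Rrp12 (0.995 with the median difference subtracted) and Serpinb9 (-0.99 with its brightest probe set) came inside it. List medians were also taken over members that reached 6 in mtYAP or YAP, a choice that favours genes high on either array. Of 42 such medians, 20 moved by more than 0.15. That yardstick is the median SD over the probe sets of a gene, not the spread of a list median. Among the moved medians were 0.935 for YAP/TAZ targets, 0.865 for the EGF family, -1.28 for proteoglycans, -0.66 for collagens and -0.845 for serpins. The sign also turned for the 2 Wnt genes (-1.37) and the 5 chemokine genes (-1.0) so chosen, against 0.05 and 0.03 over all measured, and other list medians that changed sign under any setting lay near 0. No paired analysis was possible because each condition has 1 array. Without replicates, the spread between cultures is unknown, and levels below 6 are near background, where folds are compressed.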

Other observations

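The probe sets left out for want of a single gene name held differences too. Of 9160 probe sets with no gene symbol, 18 were above 1 and 111 below -1, and among the 1104 of them with a level of at least 6 in mtYAP or YAP, 11 were above and 56 below. Of 932 with several symbols, 4 were above and 26 below. Of the 34945 probe sets that name 1 gene, 347 were above 1 (0.993%) and 579 below -1 (1.66%). Taken at all levels, probe sets with no symbol were thus called less often in both directions than those that name 1 gene. Among the named genes, 2 combined a probe set above 1 with a probe set below -1, so that their mean hides unlike values.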
